A study of Danio rerio with 3 samples.

Results

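The nervous system cells of 48 hpf zebrafish larvae were described by the gene tables that the authors built from all reads of that cell type, together with the matching tables of reads that carried at least 2 T-to-C substitutions. Wild-type (WT) larvae, 10 per preparation, were dissociated for 30 min at 37 °C in an enzyme mix with 10 mM 4-thiouridine (4sU). This uridine analog is built into RNA made during the incubation, and after treatment of the methanol-fixed cells with 10 mM iodoacetamide it shows up as a T-to-C substitution in the sequenced reads. The 3 preparations were fixation directly after dissociation ("30 min dissociation"), fixation after a 10 min sort by size and granularity ("FACS"), and fixation after the sort and another 30 min on ice ("ice"). The sorted cells of both later preparations also spent about 15 min on ice before the sort. They were collected into a cooled tube that again held 4sU, so their exposure to 4sU was longer than after dissociation alone. Per the paper's methods, the sort buffer itself held no 4sU, and the sorted cells were washed into a buffer without it. The further 30 min on ice of the last preparation were therefore spent without 4sU in the medium. Each preparation was 1 library of whole larvae, and no library without 4sU was analysed here. There was therefore no replicate error, no test between libraries was run, and every comparison below is a description of these 3 libraries. Even a sign-flip test over the 3 libraries could not give a two-sided exact p under 0.25.

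A gene was taken as a member when its nervous system table held at least 250 reads, the limit of the study. This gave 7643 genes of the 11485 that reached the limit over all cell types in the 30 min dissociation library, 6374 of 11279 in the FACS library and 6749 of 12232 in the ice library. The nervous system tables held 64797198, 45912520 and 45058130 reads, which was 33.35%, 22.83% and 22.02% of the reads in all cell type tables of the library. Genes that reached the limit in all 3 libraries numbered 5947. The authors named cell types in each library separately, and the sorted libraries had a further table, named proliferative region, with 17990773 reads in the FACS library and 32526429 in the ice library. The 30 min dissociation library had no such table, so the nervous system tables of the sorted libraries were made without cells of a kind that had no table of its own after dissociation alone.

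At this stage the zebrafish brain, spinal cord and ganglia still hold dividing progenitors beside neurons that are growing axons and forming first synapses. Progenitors are kept from differentiating by Notch signaling, in which a Delta ligand on a young neuron activates the Notch receptor of its neighbor. The receptor's cleaved domain then switches on genes of the her and hey families, whose short-lived RNAs encode repressors of the proneural factors. Neurons also carry the general stress programs of animal cells, among them the heat shock chaperones, the unfolded protein response of the endoplasmic reticulum and the immediate early transcription factors.

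The label was checked with 5 neuronal genes, and each was higher in the nervous system table than in any of the 11 other cell types tabled in all libraries. Per the paper's methods, the cell types were named from marker genes in these same data, so the check is not independent of the label. Levels are given as reads per 1000000 reads of the table (RPM). The RNA-binding protein gene elavl3, a marker of young neurons, stood at 193.2 RPM in the 30 min dissociation library, 236.1 in the FACS library and 373.4 in the ice library, against 56.09, 48.74 and 90.51 RPM in the highest other cell type. Its relative elavl4 stood at 185.8, 315.1 and 317.1 RPM, against 69.8, 70.31 and 73.16 RPM. The G protein subunit gene gng3 stood at 277.3, 399.1 and 410.2 RPM, against 83.11, 111.5 and 97.12 RPM. All of these gaps were between 2 and 5-fold, and the highest other type was the retina, which holds neurons of its own, in 5 of the 9 cases and the pigment cells in 3. The microtubule regulator stmn1b was the most abundant of the 5, with 727.1, 1084 and 1264 RPM against 293.2, 310.7 and 371.8 RPM in the retina. The synaptic vesicle fusion gene snap25a was the least abundant, with 47.89, 81.66 and 88.42 RPM against 18.46, 36.93 and 17.17 RPM.

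**Figure D1:**
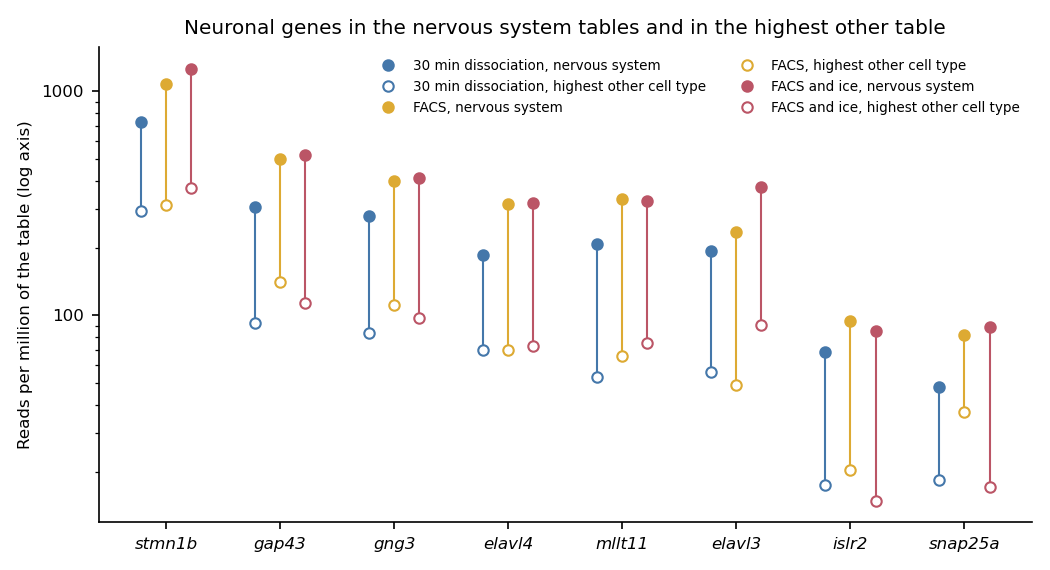
RPM of the table (log axis) of 8 neuronal genes, in the nervous system table (filled points) and in the highest of the 11 other cell types tabled in all libraries (open points), by library. Each filled point lies above its open point, for example stmn1b at 727.1 against 293.2 RPM after 30 min dissociation. islr2, mllt11 and gap43 are among the genes ranked first by this same ratio, so their position here is not a result. Neuronal genes that were not highest in the nervous system, such as snap25b, are not shown.

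Ranked by the lowest of their 3 ratios to the highest other cell type, the genes most particular to the nervous system by level were mostly genes of axons and neuronal identity. islr2, which encodes a membrane protein of growing axons, led with at least 3.953 times the highest other level, with 68.89, 94.48 and 84.87 RPM in the nervous system. mllt11 followed with a ratio of at least 3.915, and gap43, a growth cone protein, reached at least 3.313 with 305.5, 500.9 and 519.5 RPM. The others among the first 10 were si:ch211-286c4.6, cntnap2b, elavl3, myt1la, gng3 and the neuronal transcription factor genes pou4f2 and barhl1a. Some neuronal genes were not highest here: snap25b stood at 52.78, 75.21 and 64.52 RPM against 149.5, 121.9 and 135.3 RPM in the highest other type.

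Markers of other tissues were present in these tables and moved between the libraries. Muscle markers summed to 6877, 171.6 and 154.4 RPM in the nervous system tables, and to 55716.5, 483.6 and 1735 RPM in the other cell types. Blood markers summed to 8736, 40348.7 and 12136.4 RPM, almost all of it hemoglobin, and to 176256.0, 281867.3 and 186264.7 RPM in the other cell types. Levels of genes outside blood are lowered by this share wherever the other cell types are pooled. Lens markers summed to 1088, 9.104 and 5.282 RPM, and epidermis markers to 1471, 444.3 and 556.8 RPM. The nervous system tables therefore carried RNA of cells that were not neural, with muscle and lens RNA highest in the unsorted library and hemoglobin RNA highest in the FACS library. The part of this RNA in the results below was not tested except where values without it are given. Because the tables sum over cells, fewer cells of a kind and less RNA per cell cannot be told apart.

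The rate of T-to-C substitutions, the signature of 4sU, was highest in the ice library. The median over genes was 0.1809% of T positions in the 30 min dissociation library, 0.2118% in the FACS library and 0.2799% in the ice library, ratios of 1.17 and 1.547 to the first. Of the 11 other substitution types, the one with the largest ratio in the ice library was A-to-C at 1.254, on a low rate of 0.01733% after dissociation. A-to-G, which on the opposite strand would mirror T-to-C, was 0.09893%, 0.101% and 0.1161%. C-to-T was the most frequent of the other types at 0.2455%, 0.2517% and 0.2591%. T-to-C thus had the largest upward shift in median of the 12 types in both sorted libraries, while G-to-C was lower in the FACS library by a wider margin, with a ratio of 0.7038. When reads, not genes, were weighted equally, the T-to-C rate was 0.2913%, 0.32% and 0.3491%, and the ratio of the ice library to dissociation was 1.198. By this measure the FACS ratio of T-to-C was 1.099, below those of G-to-C at 1.349 and T-to-A at 1.115. After the A-to-G rate of the same gene was subtracted, the ratio was 2.609.

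**Figure D2:**
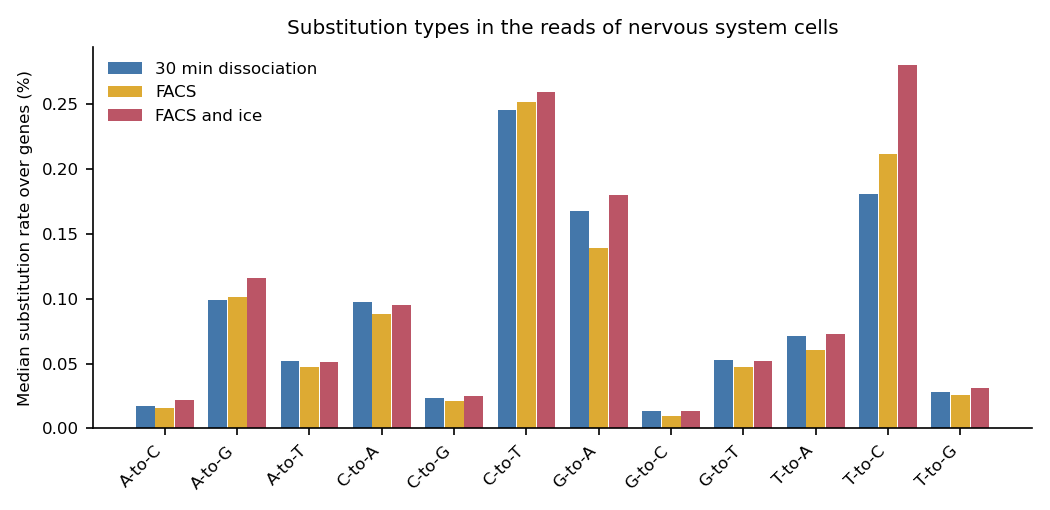
Median rate over genes with at least 250 nervous system reads (%, linear axis from 0) for each of the 12 substitution types, with 1 bar per library. T-to-C went from 0.1809% to 0.2118% and 0.2799%, while A-to-G stayed between 0.09893% and 0.1161%.

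Gene by gene, the nervous system had nearly the same T-to-C rate as the rest of the larva. Over the 6753, 5560 and 6139 genes with enough reads on both sides, the median ratio of the nervous system to the other cell types pooled was 1.015, 1.021 and 1.031. The nearest cell type was the retina, with median ratios of 1.002, 1.003 and 0.9915 over their common genes. The median over each side's own genes was higher in the nervous system, by ratios of 1.098, 1.153 and 1.074, a wider gap than over the genes measured on both sides. Within the nervous system, the T-to-C rate of a gene was at least 1.5 times that of the 30 min dissociation library for 1669 of 6162 genes (27.1%) in the FACS library and for 2594 of 6345 genes (40.9%) in the ice library, with medians of 1.095 and 1.311. These shares are the background for the gene groups below.

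Labeling was read in a second way, as entries in the tables of reads with at least 2 T-to-C substitutions per 100 reads. The nervous system tables held 238210, 258810 and 280656 labeled entries, a pooled labeled share of 0.3676%, 0.5637% and 0.6229%. A single gene dominated this sum. The embryonic alpha globin hbae1, a gene of red blood cells, took 26.01%, 61.7% and 18.33% of the entries, and its own labeled share was 42.14%, 33.74% and 37.4%. Once hemoglobin genes and names joining more than 1 gene were left out, the pooled share was 0.2515%, 0.1791% and 0.4894%, so that the FACS library then lay below the 30 min dissociation library. By this measure the nervous system ranked 2nd of 12 cell types in each library, after blood, and its ratio to the others pooled was 1.061, 0.8177 and 1.144. Entries and reads are different units: a UMI, the tag of 1 RNA molecule, was seen in a median of 3.295, 6.952 and 2.836 reads per gene, so labeled shares of reads are not comparable between libraries. Per 100 estimated UMIs the entries were 0.9258, 1.424 and 1.551. Some genes had more entries than estimated UMIs, as hbae1 did with 318.3, 459.2 and 231.6 per 100. Either entries are not molecules or the estimate is too low for such genes, and these cannot be told apart. T-to-C rates do not mix these units and are the measure from these tables by which labeling is compared between libraries below. Labeled shares and counts of highly labeled genes are also printed for each library, but they carry this limit and are not comparable between libraries.

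A gene was called highly labeled at a labeled share of at least 10%. The study words this limit over reads in a figure caption and over UMIs in its text. Per estimated UMI, 249, 192 and 257 genes of the 3 libraries passed it. Over reads, the measure used here, highly labeled genes were few in nervous system cells. They numbered 48 of 7643 (0.628%) in the 30 min dissociation library, 13 of 6374 (0.204%) in the FACS library and 46 of 6749 (0.682%) in the ice library, 67 genes in all. The 13 genes of the FACS library passed in all 3 libraries. In contrast, 27.19%, 40.93% and 16.34% of genes had no labeled entry, and 87.41%, 94.51% and 75.67% were under a share of 1%. The limit cut through a continuous range, with hes2.2 at 10.09% just inside and tmie at 9.841% just outside after dissociation, hsp70.2 at 11.08% and pcdh2ab5 at 9.151% after FACS, and CABZ01098670.1 at 10.15% and CR848812.1 at 9.919% after ice. Many of these genes were not particular to neural cells: 21 of 48, 9 of 13 and 36 of 46 passed in at least 1 other cell type of the same library. Of the 27, 4 and 10 that passed in the nervous system alone, another cell type had enough reads for only 3, 1 and 3.

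Of the 67 highly labeled genes, 50 had enough reads in both the 30 min dissociation and the ice library, among them 10 Notch targets and 6 heat shock genes. The rates of these 50 are shown as a description only, since passing the limit used the same libraries: 5 of the 10 Notch targets (her2, her4.1, her6, her12 and hey1) and 3 of the 6 heat shock genes (hsp70.3, hsp70l and hsp90aa1.1) passed in the ice library alone. Genes such as her15.1, with rates of 1.372% and 3.06%, lay away from equality, and others such as pclaf, with 6.034% and 6.012%, on it. Counts over all measured members of each list are given below.

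**Figure D3:**
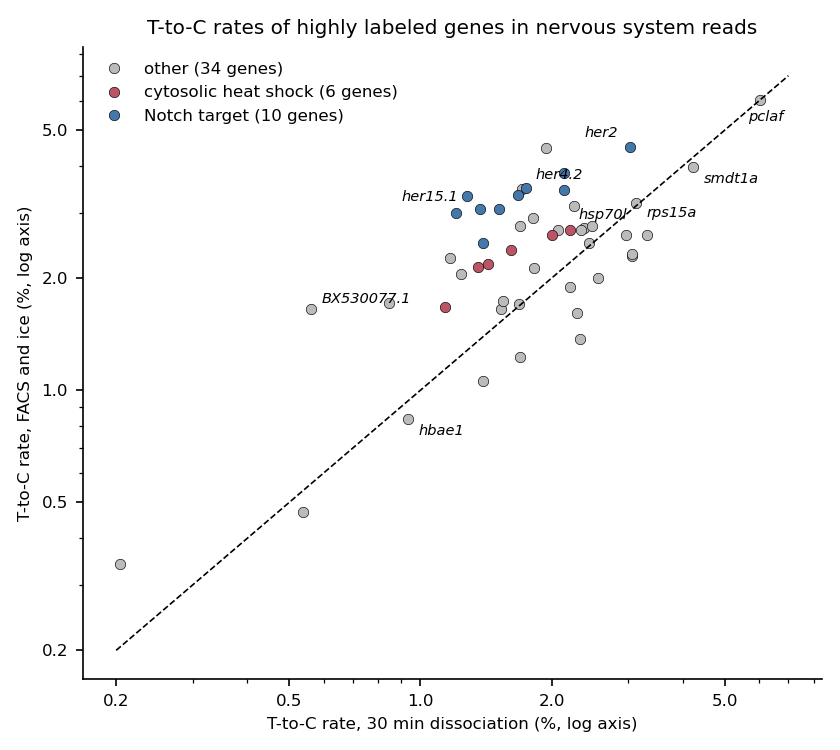
T-to-C rate (%, log axes) of the 50 genes that were highly labeled in nervous system cells of any library and had at least 250 reads in both, after 30 min dissociation (horizontal) and after FACS and ice (vertical), with equality as a dashed line. 5 of the 10 Notch target genes and 3 of the 6 heat shock genes entered through the ice library alone. her15.1 lies above the line, at 1.372% and 3.06%, and pclaf, at 6.034% and 6.012%, on it.

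The Notch targets had the highest T-to-C rates of the neural gene lists. Their summed level was 1297, 1673 and 1525 RPM in the nervous system, against 240.4, 248.5 and 431.8 RPM in the other cell types. Of 20 genes, 17 reached the read limit in each library, and 5, 5 and 10 of them were highly labeled, against the 0.628%, 0.204% and 0.682% of all genes given above. The 5 after dissociation and after FACS were all close copies of the her15 and her4 clusters described below, so they do not count as separate genes. Such copies also enter the 1.5-fold counts that follow. Their median T-to-C rate was 1.372%, 2.397% and 3.0%. At least 1.5-fold of the dissociation rate was reached by 10 of 17 in the FACS library and by 15 of 17 in the ice library, with median ratios of 1.629 and 1.861, above the 27.1% and 40.9% of all genes. The repressor gene her15.1 had a labeled share of 20.89%, 28.16% and 40.11% and a T-to-C rate of 1.372%, 2.468% and 3.06%. Its nervous system tables held 9837, 11104 and 8721 reads, which was 78.37%, 70.84% and 51.19% of all reads of the gene. The rate was ordered dissociation, FACS, ice, whereas entries per 100 estimated UMIs were 112.7, 232.6 and 139.3 and highest in the FACS library.

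The near-identical copy her15.2 had T-to-C rates of 1.676%, 2.694% and 3.345%, in the same order, and labeled shares of 27.05%, 30.3% and 38.64%. Its entries per 100 estimated UMIs were 168.8, 280.2 and 127.1, lowest in the ice library. Of the her4 cluster, another group of close copies downstream of Notch in neural progenitors, her4.2 had labeled shares of 16.89%, 21.81% and 33.62% and T-to-C rates of 1.743%, 3.046% and 3.502%. her4.3 and her4.4 were in the same range, with T-to-C rates of 2.136%, 2.904% and 3.823%, and of 1.515%, 2.483% and 3.066%. These 5 genes were highly labeled in all 3 libraries. Their A-to-G rates were also above the median of all genes in each library, for example 0.8222%, 0.8683% and 0.8658% for her15.1. The part of mismatches between copies in these values was not tested. The counting may divide reads between the copies within each cluster, so values of single copies are uncertain. her4.1 had a far lower labeled share, 2.705%, 2.453% and 10.32%, at a like T-to-C rate of 1.282%, 2.416% and 3.324%. Its A-to-G rate was low, at 0.03462%, 0.02806% and 0.03251%.

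Notch targets outside these clusters followed the same order of T-to-C rates. her6, a repressor of the hairy type, had rates of 1.206%, 2.231% and 3.0%. her2 had the highest rate of the list in each library, 3.028%, 3.565% and 4.5%. her12 had 1.391%, 1.736% and 2.487%, and nrarpa, which encodes a feedback inhibitor of the Notch complex, had 0.7189%, 1.219% and 1.338%. Some members did not follow it. hey1 at 2.131%, 3.471% and 3.444% and her9 at 1.386%, 2.397% and 2.296% were no higher after ice than after FACS. hes6, which promotes neuronal differentiation, was hardly labeled at 0.02917%, 0.03749% and 0.03991% although it was one of the most abundant genes of the list, with 261.5, 181 and 238.8 RPM. her8.2 and her13 were also low, at 0.1355% and 0.1447% in the ice library.

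Abundance of the Notch targets differed little between the libraries. None of 17 was 2-fold higher or lower in the FACS library, and 2 of 17 were 2-fold higher in the ice library, her2 and her13, with log2 ratios of 1.13 and 1.23, where 3.14% and 8.43% of all genes were higher and 3.78% lower after FACS. The median log2 ratio was 0.41 and 0.22. her15.1 stood at 151.8, 241.9 and 193.5 RPM, and her4.1 at 235, 351.6 and 285.1 RPM. On the median, the labeled shares of these genes in the other cell types were close to those in the nervous system. her15.1 had 24.95%, 26.03% and 40.22% there, and the ratio of the nervous system to the others had a list median of 0.8897, 1.046 and 0.9899 over the 11, 9 and 12 genes that could be compared. After dissociation 2 of 11 were at least 2-fold lower in the nervous system, where 1.11% of all genes were. One of them was hey1, with 6.366% against 18.16%. After FACS 1 of 9 was at least 2-fold higher, where 6.03% of all genes were.

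The upstream parts of the pathway were labeled less. Of 15 Notch receptors, ligands and modifiers, 12, 9 and 11 were measured and none was highly labeled, with median T-to-C rates of 0.4818%, 0.56% and 0.7126%. The receptor gene notch1a had 0.6053%, 0.3269% and 0.5903%, and notch3 had 0.1925%, 0.1249% and 0.2922%. The Delta ligand gene dla had 0.4002%, 0.6966% and 0.6399%, and dld had 0.3%, 0.57% and 0.8012%. Both ligand genes thus had higher rates in the sorted libraries, while the rates of both receptor genes were lowest in the FACS library. lfng, which encodes a sugar transferase that modifies Notch, was the most labeled of the list that reached the limit in each library, with 1.057%, 1.664% and 1.949%, and its labeled share was 1.41, 1.571 and 1.906 times that in the other cell types.

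Proneural transcription factors, which the her proteins repress, had lower rates than the Notch targets but a like shift. Of 19 genes, 17, 17 and 18 were measured and none was highly labeled. The median T-to-C rate was 0.2998%, 0.4003% and 0.4586%, and at least 1.5-fold of the dissociation rate was reached by 9 of 17 in the FACS library and 12 of 17 in the ice library, against 27.1% and 40.9% of all genes. ascl1b, which starts neuronal differentiation, had rates of 0.2998%, 0.4477% and 0.9045%, and neurod1, a later factor, had 0.339%, 0.5032% and 0.9884%. neurog1 had 0.1373%, 0.4003% and 0.3455%. All 3 were higher in both sorted libraries, and neurog1 was slightly lower after ice than after FACS.

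Genes of the neuronal end state were labeled little. Of the 26 pan-neuronal genes, 25 were measured in each library and none was highly labeled. Their median T-to-C rate was 0.1089%, 0.1654% and 0.1717%, below the median of all genes in each library. elavl3 was the one marker of the 5 above the median of all genes in each library, at 0.2291%, 0.4275% and 0.3985%, while gap43 had 0.05646%, 0.07242% and 0.06872% and stmn1b had 0.0739%, 0.1323% and 0.144%. The splicing factor gene nova2 had the highest labeled share of the list in the ice library, 1.555%, after 1.059% and 0.4976%. At least 1.5-fold of the dissociation rate was reached by 8 of 25 in the FACS library and 12 of 25 in the ice library, near the shares of all genes.

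Transmitter genes were measured in small numbers. Of 18 genes of the GABAergic list, 14, 14 and 15 reached the limit. At least 1.5-fold of the dissociation rate was reached by 5 of 14 and 7 of 14, near the 27.1% and 40.9% of all genes. slc32a1, the vesicular GABA transporter, had T-to-C rates of 0.09541%, 0.4657% and 0.4302%, and gad2, which encodes an enzyme that makes GABA, had 0.5187%, 0.6381% and 0.5048%. Of the 6 glutamatergic genes only 3, 4 and 3 were measured, and the vesicular glutamate transporter gene slc17a6b had 0.3022%, 0.3558% and 0.2536%. slc32a1 passed the 1.5-fold ratio in both sorted libraries, and gad2 and slc17a6b in neither.

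Progenitor and radial glia genes shifted mainly in the ice library. Of 20 genes, 18, 16 and 15 were measured and none was highly labeled. At least 1.5-fold of the dissociation rate was reached by 3 of 16 (18.75%) in the FACS library, below the 27.1% of all genes. In the ice library 10 of 15 (66.67%) reached it, above the 40.9% of all genes. The progenitor factor sox2 had T-to-C rates of 0.2039%, 0.2024% and 0.5555%, and sox3 had 0.1118%, 0.1509% and 0.324%. id1, which encodes an inhibitor of proneural proteins and is a target of BMP signaling, had the largest shift among the abundant genes of the list, with 0.2114%, 0.9513% and 1.784% and a labeled share of 0.4676%, 1.141% and 6.484%. At the same time its level was lower in the sorted libraries, at 260.7, 137.5 and 120.8 RPM. The log2 ratio of its level after ice was -1.11 in the nervous system, -0.49 with the proliferative region added and -0.0019 in the other cell types.

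**Figure D4:**
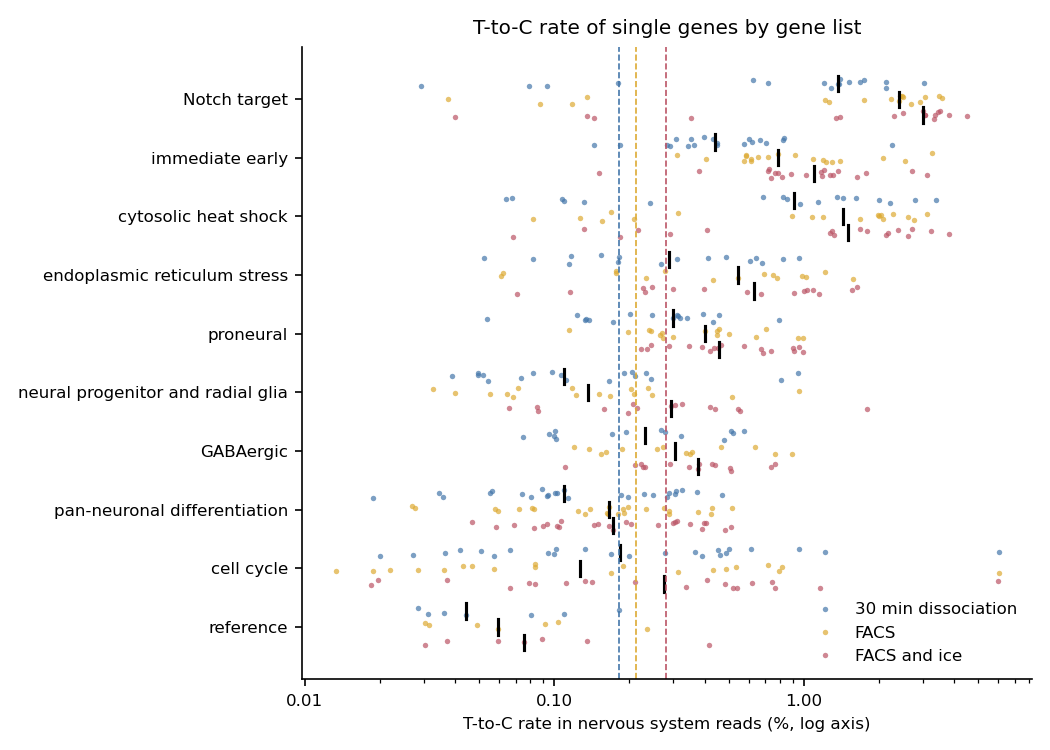
T-to-C rate (%, log axis) of each measured gene in nervous system reads for 10 gene lists, with 1 row of points per library, the list median as a black bar and the median of all genes in each library as a dashed line. The Notch target medians of 1.372%, 2.397% and 3.0% lie farthest to the right, and the reference genes, with 0.04433%, 0.05925% and 0.07586%, farthest to the left.

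Heat shock genes were both strongly labeled and more abundant in the sorted libraries. Of 24 cytosolic and mitochondrial chaperone genes 18 were measured, 3, 1 and 6 of them highly labeled, against 0.628%, 0.204% and 0.682% of all genes. Their median T-to-C rate was 0.9109%, 1.435% and 1.497%, and 5 of 18 and 8 of 18 were at least 1.5-fold above dissociation, near the shares of all genes. The summed level was 7765, 11811.9 and 15845.9 RPM in the nervous system, against 4787, 5539 and 8778 RPM in the other cell types pooled, which include blood. At least 2-fold higher than after dissociation were 6 of 18 in the FACS library and 10 of 18 in the ice library, where 3.14% and 8.43% of all genes were, and none was 2-fold lower. The median log2 ratios of 0.42 and 1.2 compare with 0.11 and 0.24 over all genes.

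hsp70l, an inducible Hsp70 chaperone gene, stood at 564.7, 1576 and 1731 RPM, against 676.3, 1467 and 1717 RPM in the highest other cell type. After dissociation its level was thus below that of cartilage. Its labeled share was 9.029%, 5.279% and 12.06% and its T-to-C rate 2.203%, 2.606% and 2.699%. The close copies hsp70.1, hsp70.2 and hsp70.3, between which reads may be divided, had T-to-C rates of 1.615%, 2.266% and 2.379%, of 1.359%, 1.985% and 2.137%, and of 1.432%, 2.036% and 2.178%. For all of these genes the level and the rate were lowest after dissociation alone, and the step from dissociation to FACS was larger than the step from FACS to ice.

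The co-chaperone gene dnajb1b, whose product feeds clients to Hsp70, had the largest upward difference in level among the genes that moved the same way in both sorted libraries, with 75.14, 362.7 and 582.3 RPM, a fold of 7.75 between ice and dissociation. DNAJA4, of the same protein class, was next with a fold of 7.415, and hsph1, an Hsp70 exchange factor, had a fold of 4.596. The inducible Hsp90 gene hsp90aa1.2 stood at 716.1, 1290 and 2203 RPM, with T-to-C rates of 3.395%, 2.749% and 3.817%. The constitutive relatives were more abundant and barely labeled: hsp90ab1 stood at 3115, 3320 and 5214 RPM with rates of 0.1092%, 0.1267% and 0.1311%, and hspa8 at 1598, 1800 and 2020 RPM with rates of 0.1316%, 0.155% and 0.1832%. In the other cell types dnajb1b and hsp70l moved the same way, with log2 ratios of ice to dissociation of 2.55 and 1.28 there and of 2.95 and 1.62 in the nervous system.

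hsp90aa1.1, an Hsp90 gene of muscle, had the largest lowest-of-3 ratio of labeled share between the nervous system and the other cell types. Its labeled share was 5.249%, 7.798% and 16.24% and its ratio to the other cell types 2.938, 5.739 and 2.538. Its level in the nervous system was low, 11.47, 9.496 and 25.83 RPM, while head muscle had 314.6, 557.2 and 535.6 RPM. The T-to-C rate did not share this excess: in the FACS library it was 1.08% in the nervous system and 1.522% in the other cell types, and in the ice library 1.677% and 1.414%. After dissociation it was also lower than the 1.17% of the other cell types.

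Immediate early genes, the transcription factors and regulators that cells induce within minutes of a stimulus, showed a broad shift in T-to-C rate with little shift in level. Of 46 listed genes 20, 19 and 20 were measured and 0, 0 and 1 highly labeled, against 0.628%, 0.204% and 0.682% of all genes. The median rate was 0.4391%, 0.7846% and 1.096%, and 13 of 18 and 15 of 18 were at least 1.5-fold above dissociation, against 27.1% and 40.9% of all genes. The 1 highly labeled gene was fosab, a subunit of AP-1, with labeled shares of 6.951%, 2.869% and 10.35% and T-to-C rates of 2.257%, 2.08% and 3.118%. Its level was 9.769, 20.5 and 23.15 RPM, against a highest other level of 72.74, 124.4 and 121.7 RPM. jun, its partner, had T-to-C rates of 0.6018%, 1.225% and 1.366% at 29.46, 36.87 and 49.27 RPM. fosab was exceptional in its FACS rate, which was below that of dissociation, whereas jun had its main step between those libraries.

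Other genes of this list were closer to jun. ier5 had T-to-C rates of 0.2907%, 0.5771% and 0.7655%, the antiproliferative gene btg2 had 0.3977%, 0.5841% and 0.7901%, and the survival gene mcl1a had 0.3442%, 0.6532% and 0.7356%. junba had 0.3615%, 0.7169% and 1.778% on only 389, 336 and 343 reads. In each of these genes the order was dissociation, FACS, ice. In level, 1 of 18 was 2-fold higher in the FACS library and 2 of 18 in the ice library, fosab and egr2a, near the 3.14% and 8.43% of all genes, and the median log2 ratio after ice was 0.25, against 0.24 over all genes. The summed level was lower in the nervous system than in the other cell types, 663.7, 746 and 808.4 RPM against 803, 841.2 and 1024 RPM. The labeled share was also lower on the median, with ratios of 0.8771, 0.8049 and 0.8399 over the 9, 4 and 13 genes that could be compared.

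Genes of endoplasmic reticulum stress were not highly labeled, but their median rate was 0.2884%, 0.5463% and 0.6306% over 16, 15 and 16 of 18 genes. At least 1.5-fold of the dissociation rate was reached by 9 of 15 in the FACS library and 10 of 16 in the ice library, against 27.1% and 40.9% of all genes. hspa5, which encodes the main Hsp70 chaperone of this compartment, had labeled shares of 1.317%, 0.7581% and 3.338%, which were 1.514, 1.363 and 1.817 times those of the other cell types. hsp90b1, its Hsp90 counterpart in this compartment, had ratios of 1.924, 1.94 and 1.873. In level, hspa5 stood at 111.4, 137.9 and 140.3 RPM against 238.8, 359.2 and 304.5 RPM in the highest other type. That is a single cell type, whereas the ratios of labeled share are to the others pooled. The summed level of the list was 811, 1030 and 1063 RPM, against 661.8, 797.7 and 1003 RPM in the other cell types pooled, which include blood. In the ice library 3 of 9 comparable genes had at least 2-fold the labeled share of the other cell types, and 0 of 6 and 0 of 5 had after dissociation and FACS, where the shares of all genes were 6.98%, 6.17% and 6.03%.

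Across all genes, a 2-fold gap in labeled share to the other cell types was uncommon in either direction. Among genes with 250 reads on both sides and at least 20 labeled entries in the nervous system, 39 of 632 (6.17%) were at least 2-fold higher and 7 (1.11%) at least 2-fold lower in the 30 min dissociation library. In the FACS library these were 14 of 232 (6.03%) and 5 (2.16%), and in the ice library 62 of 888 (6.98%) and 6 (0.676%). Against this background, 2 of 14, 3 of 13 and 1 of 15 heat shock genes were higher and 0, 1 and 0 lower, and 0, 1 and 0 Notch targets were higher and 2, 0 and 0 lower. Of the pan-neuronal genes, 3 of 8, 0 of 4 and 1 of 11 were higher. Among the 223 genes that could be compared in all 3 libraries, the largest lowest-of-3 ratios were those of hsp90aa1.1 (2.538), zgc:109934 (2.397), hsp90b1 (1.873), the collagen chaperone gene serpinh1b (1.551), marcksl1a (1.466), lfng (1.41) and hspa5 (1.363).

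A second group of highly labeled genes had a T-to-C rate that differed little between the libraries. pclaf, a gene of DNA replication, had labeled shares of 25.14%, 11.97% and 25.8% and T-to-C rates of 6.034%, 6.023% and 6.012%, against 5.981%, 5.875% and 5.921% in the other cell types. rps15a, which encodes a protein of the small ribosomal subunit and is made in every cell, had 3.126%, 2.783% and 3.191%. It was highly labeled in each of the 14 cell types of the first and the last library but in none of the 15 after FACS. Its entries per 100 estimated UMIs in the nervous system were 36.58, 24.14 and 37.54. smdt1a, which encodes a small subunit of the mitochondrial calcium uniporter, had 4.234%, 4.164% and 3.988%. The clustered protocadherin gene pcdh1g33, of a family of neuronal adhesion molecules with many similar members, had 2.372%, 2.477% and 2.735% and also a high A-to-G rate of 1.603%, 1.273% and 1.579%. These 4 genes are examples chosen for rates that differed little, so their staying under 1.5 times the dissociation rate is not a result. Of the 50 highly labeled genes shown above, 34 were neither Notch targets nor heat shock genes. Among these 34, 9 reached 1.5 times their dissociation rate after ice, with a median ratio of 1.051. Of all genes 40.9% reached it, with a median of 1.311. The 34 are a description only, since passing the limit used the same libraries, and 11 of them passed in the ice library alone. A filter for sequence variants is described for the bulk data of the study and none for these tables, and the part of variants in these rates was not tested.

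hbae1 belonged to this group, with T-to-C rates of 0.9354%, 0.8472% and 0.8383%. It was highly labeled in 14 of 14, 13 of 15 and 14 of 14 cell types. Hemoglobin genes took 0.8718%, 4.031% and 1.212% of the nervous system reads, so this RNA was present in the tables of a cell type that is not known to make it. Genes of stable abundance served as the low end: the 7 reference genes had median rates of 0.04433%, 0.05925% and 0.07586%, and eef1a1l1, an elongation factor gene, had the middle value of the list in each library. Of the mitochondrially encoded genes, 13, 11 and 12 were measured. Among them 1 of 11 and 1 of 12 reached 1.5-fold, below the 27.1% and 40.9% of all genes. mt-nd3 alone was highly labeled, in the ice library, where 0.682% of all genes were.

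Levels in the nervous system differed between libraries mostly between the sorted and the unsorted preparations. With at least 250 reads in both libraries, 194 of 6169 genes (3.14%) were at least 2-fold higher and 233 (3.78%) at least 2-fold lower in the FACS library than after dissociation. In the ice library 536 of 6355 (8.43%) were higher and 206 (3.24%) lower than after dissociation, and 95 of 6066 (1.57%) were higher and 16 (0.264%) lower than after FACS. The comparisons with dissociation share that library. The median log2 ratio of all genes was 0.11, 0.24 and 0.12 in these comparisons. When the libraries were scaled so that this median was 0, the splits were 115 higher and 289 lower, 255 and 319, and 45 and 23, so that the excess of higher genes after ice turned into an excess of lower ones. Without hemoglobin, mitochondrial and ribosomal protein genes, the ice to FACS split was 45 and 16.

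Cell cycle genes were the neural list with the largest difference in level. Of those measured in both libraries, 19 of 20 were at least 2-fold lower in the FACS library and 19 of 20 in the ice library than after dissociation, with median log2 ratios of -2.15 and -2.01, where 3.78% and 3.24% of all genes were lower. The proliferation marker mki67 stood at 110.5, 19.56 and 17.51 RPM, and ube2c, which acts in the exit from mitosis, at 236.7, 20.69 and 22.33 RPM. The summed level of the list was 1982, 449.5 and 473.3 RPM. The differences depended on which tables were counted as neural. With the proliferative region added to the nervous system, none of 24 cell cycle genes was 2-fold lower in the ice library, the median log2 ratio was 0.09, and mki67 and ube2c had log2 ratios of 0.11 and -0.42. In the FACS library 1 of 24 was 2-fold lower, the replication helicase gene mcm6 at -1.1, and the median was -0.17, with mki67 at 0.07 and ube2c at -0.12.

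Neuronal genes were higher in the sorted libraries by a smaller amount, and less so with the proliferative region added. Of 25 pan-neuronal genes, 1 was at least 2-fold higher in the FACS library and 6 in the ice library, near the 3.14% of all genes and above the 8.43%, and all 25 had a log2 ratio above 0 after ice, between 0.02 and 1.51. elavl3 had a log2 ratio of 0.95 after ice. With the proliferative region added, 0 of 25 were 2-fold higher, the median fell from 0.77 to 0.19, and elavl3 had 0.38. In the GABAergic list 5 of 14 were 2-fold higher after ice, where 8.43% of all genes were, with a median of 0.83. Once the proliferative region was added, 0 of 14 were 2-fold higher, with a median of 0.20. Over all genes that addition left 182 higher and 106 lower of 7300 in the ice library, in place of 536 and 206.

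Heat shock genes and muscle markers kept their difference with the proliferative region added. Heat shock genes had 8 of 18 at least 2-fold higher after ice, with a median log2 ratio of 0.83, and dnajb1b had 2.48. The radial glia fatty acid binding protein gene fabp7a, the most abundant gene of the progenitor list, stood at 10044.6, 4893 and 3198 RPM in the nervous system table alone, a log2 ratio of -1.65 after ice, and had -1.24 with the region added. Muscle markers had a median log2 ratio of -5.34 over 8 genes without the region and -5.66 over 12 with it. The genes with the smallest ratios of all were 8 muscle genes, among them the parvalbumin gene pvalb1 with a fold of 0.01314, and ak1 and si:ch211-69g19.2.

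**Figure D5:**
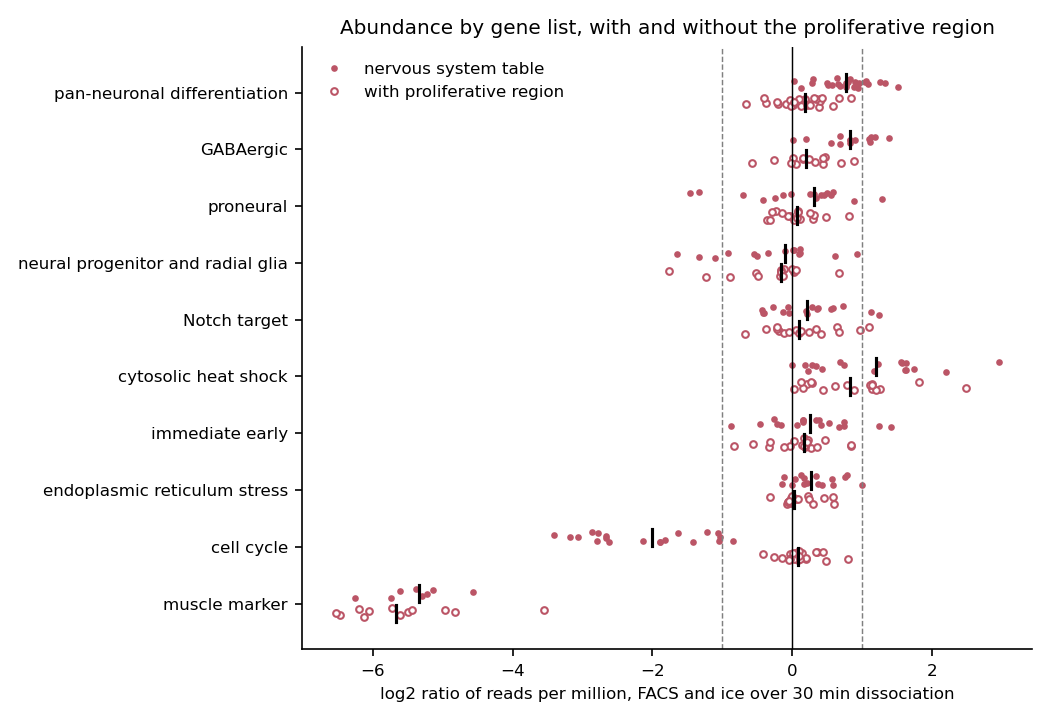
log2 ratio of RPM, FACS and ice over 30 min dissociation, of each gene with at least 250 reads in both, by list, in the nervous system table alone (filled) and with the proliferative region table added to it (open). Black bars are list medians, dashed lines mark 2-fold, and the cell cycle median goes from -2.01 to 0.09 while the heat shock median goes from 1.2 to 0.83.

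Beyond the chaperones, the genes with the largest ice to dissociation folds included genes of neuronal and glial identity. scrt1a, a zinc finger repressor of young neurons, stood at 14.86, 38.75 and 103.4 RPM, a fold of 6.957, with T-to-C rates of 0.5529%, 1.242% and 1.474%. The neuronal RNA-binding protein gene celf5a had a fold of 5.629 and stood at 4.491, 19.01 and 25.28 RPM. The receptor gene tgfbr1b had a fold of 5.722, the myelin gene mbpb 5.345, gng7 4.552, bach2b 4.412 and fstl1a 4.32. scrt1a, celf5a and tgfbr1b kept log2 ratios of 2.14, 1.80 and 2.05 with the proliferative region added, and bach2b moved alike in the other cell types, with a log2 ratio of 1.87 there.

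Single cells gave a view that does not depend on the tables' division, but their classes are not those of the tables. Cells with at least 3 of the 5 neuronal markers numbered 2343 of 11043 (21.22%), 1015 of 4609 (22.02%) and 2564 of 9550 (26.85%), with median depths of 2851, 2778 and 3907 UMIs. Cells with none of the markers numbered 3736, 2048 and 4124, with median depths of 2388, 3816 and 4350 UMIs. Neurons of the retina, which had its own table, can be in the first class, and neural progenitors without these markers in the second. Notch targets had 4166, 1677 and 6895 detections (cells with a gene, added over the list) in the first class and 4747, 4206 and 9327 in the second. The classes are thus not nervous system against other cells. The deposited lists give, for each cell, its detected genes and those with a labeled UMI, so the share of cells with a gene in which it was labeled can be given, with exact Clopper-Pearson 95% intervals for counting error only. Between 11 and 28 barcodes were shared by any pair of libraries, at most 0.2932% of the cells of the second library.

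In marker-positive cells, hsp70l was labeled in 59.81% (57.65 to 61.93) of 2065 cells after dissociation, 86.83% (84.57 to 88.87) of 995 after FACS and 89.78% (88.53 to 90.94) of 2525 after ice. In cells without markers it was labeled in 52.19%, 78.24% and 72.21%. her15.1 was labeled in 53.45% (48.79 to 58.06), 73.74% (66.66 to 80.03) and 81.31% (78.15 to 84.18) of marker-positive cells with the gene, and in 51.05%, 75.5% and 70.83% of cells without markers. Droplets also held RNA of other cells: hbae1 was found in 2332 of 2343, 991 of 1015 and 2557 of 2564 marker-positive cells and was labeled in 90.82%, 80.83% and 79.12% of them. These shares therefore describe droplets and not only the RNA of neurons, and the part of free RNA in them was not tested. elavl3 itself was labeled in 3.717%, 7.293% and 7.868% of marker-positive cells with the gene, and stmn1b in 1.465%, 3.636% and 4.986%.

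Over whole lists, 28.97%, 40.97% and 46.42% of the detections of Notch targets in marker-positive cells were labeled, and 28.32%, 46.08% and 50.48% of those of heat shock genes. In cells without markers these were 30.52%, 45.82% and 45.13%, and 25.08%, 39.53% and 40.65%. Immediate early genes were labeled less often in marker-positive cells, in 7.723%, 12.59% and 17.69% of detections against 11.7%, 17.6% and 19.84%. Pan-neuronal genes were labeled in 1.898%, 3.006% and 3.845% of detections in marker-positive cells, against 1.402%, 3.02% and 3.48% in cells without markers. This list includes markers by which the cells were classed, such as elavl3. The 2 classes therefore pool detections of different genes, and for this list they are not a like comparison. In the other lists too, detections are pooled and the mix of genes can differ between the classes, which was not tested. In marker-positive cells the share was ordered dissociation, FACS, ice in these 4 lists. The reference genes had the same order, with 2.436%, 4.551% and 6.317%, so it is not particular to the 4 lists. A deeper cell has more UMIs per gene in which a label can be seen. Differences between libraries or between classes of unequal depth therefore include that of depth, whose part was not tested.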

How the data were processed

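Single-cell libraries of whole 48 hpf larvae, 1 per preparation, were used with groups from the sample labels. Per the submitters' processing notes, the tools were bcl2fastq 2.19, Cell Ranger 6.1.1 and SAMtools 1.14. For each cell type the authors deposited a read count per gene, for all reads and for reads with at least 2 T-to-C substitutions, and a ratio for each of 12 substitution types at a base quality of at least 20, here multiplied by 100. The deposited UMI count matrices and the lists of found and labeled genes per cell were read for marker-positive cells; doublets were not removed here.

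Labeled share was labeled entries over reads, RPM were reads per 1000000 reads of the table, and estimated UMIs were table reads divided by the reads per UMI of the gene. Reads per UMI were the gene's reads in all cell type tables of the library over its UMIs in all cells of the UMI matrix. Members needed 250 reads. With 1 library per group, folds of 2 and T-to-C ratios of 1.5 were counted and no test was run. Numbers were computed with Python 3.11.15, pandas 2.3.3, numpy 2.4.6 and scipy 1.17.1, after the code was tested on simulated data. Genes named were members of 26 lists (430 genes) and the first 10 by labeled share in each library (20 or more labeled entries), by lowest-of-3 ratio of labeled share or level to other cell types, and by fold between ice and dissociation. Genes at the limit were added after their values were seen. Members and lists were chosen with earlier results of these data known. The proliferative region was added as an alternative after seeing the data. Names that join several genes (286, 241 and 309) were left out of named genes.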

Additional observations from a re-analysis of the deposited data

Results flagged for a closer look

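pclaf, a DNA replication gene, differed in level between the ice and the dissociation library in opposite directions: its log2 ratio was -1.07 in the nervous system and 1.27 in the other cell types. With the proliferative region added to the nervous system it was 0.80. smdt1a, a gene of the mitochondrial calcium uniporter, had a log2 ratio of 1.22 between the FACS and the dissociation library in the nervous system and of -1.88 in the other cell types. With 1 library per preparation, neither difference was tested.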

How the results depend on the processing

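Counts of highly labeled genes depended on the limits. For dissociation, FACS and ice they were 48, 13 and 46, and became 74, 24 and 71 with 100 reads, 131, 32 and 153 at a share of 5%, 12, 5 and 11 at 20%, and 249, 192 and 257 per estimated UMI. With 500 reads dissociation had 30. With no read limit but 20 labeled entries, FACS and ice had 25 and 71, and with the proliferative region added 27 and 73. The FACS to dissociation ratio of the pooled labeled share, 1.533, turned to 0.712 without hemoglobin and joined names, 0.7936 without the 10 genes with most entries and 0.337 as a median over genes, and was 3.404 per estimated UMI and 1.24 with the proliferative region. For ice, 1.694 became 1.946, 1.898, 2.027, 1.493 and 1.444 in the same order. The median T-to-C ratio of FACS, 1.17, was 1.529 after subtraction of A-to-G, and that of ice, 1.547, was 2.609, or 1.198 when weighted by reads. The nervous system to other types T-to-C ratio in the FACS library, 1.153, was 1.021 gene by gene.

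Genes at least 2-fold changed numbered 427 (FACS to dissociation), 742 (ice to dissociation) and 111 (ice to FACS). They numbered 887, 1435 and 361 with 100 reads, 112, 199 and 17 with 1000 reads, 1127, 1573 and 364 with 250 reads in either library, 1490, 2083 and 709 at 1.5-fold, and 140, 161 and 8 at 3-fold. With the proliferative region the first 2 were 199 and 288, and the last was 68 at a median of 0 and 61 without hemoglobin, mitochondrial and ribosomal protein genes.

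Replacing labeled shares of reads by shares of labeled detections in marker-positive cells changed both the cells and the measure. The FACS to dissociation ratio turned from 0.751 to 1.63 for immediate early genes and from 0.5245 to 1.584 for pan-neuronal genes, and went from 1.207 to 1.627 for heat shock genes. For ice it went from 2.071 to 1.602 (Notch targets), 2.32 to 1.782 (heat shock), 2.637 to 2.291 (immediate early) and 1.636 to 2.026 (pan-neuronal). The causes were not tested, apart from fewer or more genes passing a limit. No paired analysis was possible because each preparation had 1 library, and no library could be left out.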
